A study of Mus musculus with 17 samples.

Results

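The chromatin mark H3K27me3 was compared between wild-type CD4 and wild-type CD8 mature thymocytes of the mouse, by taking every H3K27me3 island of both deposited lists and merging islands that shared at least 1 bp. Islands are the enriched intervals that the authors called in each library, each with the number of reads it held. The WT CD4 list had 34013 islands and the WT CD8 list 34756, of 346699 histone islands in the series, and they merged into 55093 regions. Of these regions, 23240 were covered by WT CD4 islands alone, 21984 by WT CD8 islands alone and 9869 by islands of both.

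The series holds 17 samples from chromatin immunoprecipitation and sequencing (ChIP-seq): 4 histone marks and an input in each of 3 thymocyte groups, and Tcf1 in splenic CD8 T cells with and without Tcf1. The WT CD4 and WT CD8 groups are mature thymocytes of wild-type genotype, sorted with high surface TCRbeta and without CD69 or CD24. DKO CD8 thymocytes, of the same sort, came from Tcf1-/-Lef1-/- mice in which CD4-Cre, a recombinase that the CD4 promoter switches on in developing T cells, deleted both factors, a deletion not checked here. The Tcf1 peaks used here were of wild-type splenic TCRbeta high CD8+ cells. The WT CD4 samples carry a phenotype label that reads CD8+, whereas title and source name give CD4, so the title was used. Lineage marker genes were not analysed here, since a gene annotation of the files' genome build, mm9, was not used, so the labels were not checked against markers. The sources used here do not give age, strain or sex.

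H3K27me3 is written by Polycomb repressive complex 2 and marks chromatin held silent, often as broad domains over the genes of other lineages. Acetylation of the same lysine, H3K27ac, marks active promoters and enhancers and cannot sit on the same histone tail as H3K27me3, while H3K9ac and H3K4me3 mark active or poised promoters. In the thymus, CD4 and CD8 cells arise from a common precursor that carries both coreceptors, and each lineage silences part of the programme of the other.

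With 1 library a side no difference below has a replicate check, and no p-value is given. Intervals are exact Clopper-Pearson 95% intervals and cover counting error only, since PCR reads are not independent molecules. In a population of cells, fewer cells with the mark and less of the mark per cell cannot be told apart. Reads outside islands are unknown, and therefore no fold is stated where only 1 of the libraries has an island.

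The WT CD4 islands held 4025243 reads over 142 Mb (5.50% of the genome span) and the WT CD8 islands 2569785 reads over 121 Mb (4.69%). The density was 28.4 reads per kb of island in WT CD4 and 21.2 in WT CD8, and the median width was 2800 bp in each. The WT CD8 library stood apart from the others in its overlap with H3K27ac. Of the sequence under H3K27me3 islands, 4.47% lay also under H3K27ac islands of the same cells in WT CD4, 6.10% in DKO CD8 and 29.4% in WT CD8. Whether all WT CD8 H3K27me3 islands report that mark was not tested, a limit on every value of WT CD8 alone below. The strongest WT CD4 island held 26890 reads, or 0.668% of that library's island reads. The strongest WT CD8 island, chromosome 9, 2999801 to 3039400, held 111889 reads, or 4.35%. The other 11 histone libraries had no island at that place.

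The calls in common covered a minority of each list. Of the WT CD4 islands 31.7% overlapped a WT CD8 island, and of the WT CD8 islands 36.7% overlapped a WT CD4 island. The 45.8 Mb under both made up 32.2% of the WT CD4 sequence and 37.8% of the WT CD8 sequence. As a Jaccard index, the sequence under both over the sequence under either, this is 21.1%. The 3 active marks had lower indices between the same lineages: 13.6% for H3K27ac, 11.8% for H3K4me3 and 9.68% for H3K9ac. Their islands were shorter, and lists of unequal covered length cannot reach a high index. H3K9ac covered 45.6 Mb in WT CD4 and 13.5 Mb in WT CD8, against 142 and 121 Mb for H3K27me3. The indices therefore do not rank the marks by how far the lineages share them.

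Regions called in both libraries were the long ones, and in WT CD4 the more densely marked. They made up 17.9% of regions (17.6 to 18.2) but held 66.8% of the WT CD4 island reads and 39.3% of the WT CD8 island reads. Density was 34.8 reads per kb in shared regions and 20.7 in those alone for WT CD4, and 18.7 and 23.3 for WT CD8. The last value includes the chromosome 9 island, with 111889 of the 1559388 reads in regions of WT CD8 alone. The median width of shared regions was 6400 bp, against 2400 bp for regions of WT CD4 alone and 2400 bp for regions of WT CD8 alone. Merging itself lengthens a region that has islands from both lists, so overlap was also read by the width of single islands. Among islands over 20 to 50 kb, 480 of 483 in WT CD4 (99.4%, 98.2 to 99.9) and 55 of 64 in WT CD8 (85.9%, 75 to 93.4) overlapped an island of the other library. Among islands over 1 to 2 kb, the shares were 14.0% of 8508 in WT CD4 and 24.0% of 8761 in WT CD8. A longer island meets another by chance more often. Over 5 to 10 kb the lists differed, with 63.7% of 5192 WT CD4 islands and 46.5% of 5598 WT CD8 islands overlapped.

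**Figure D1:**
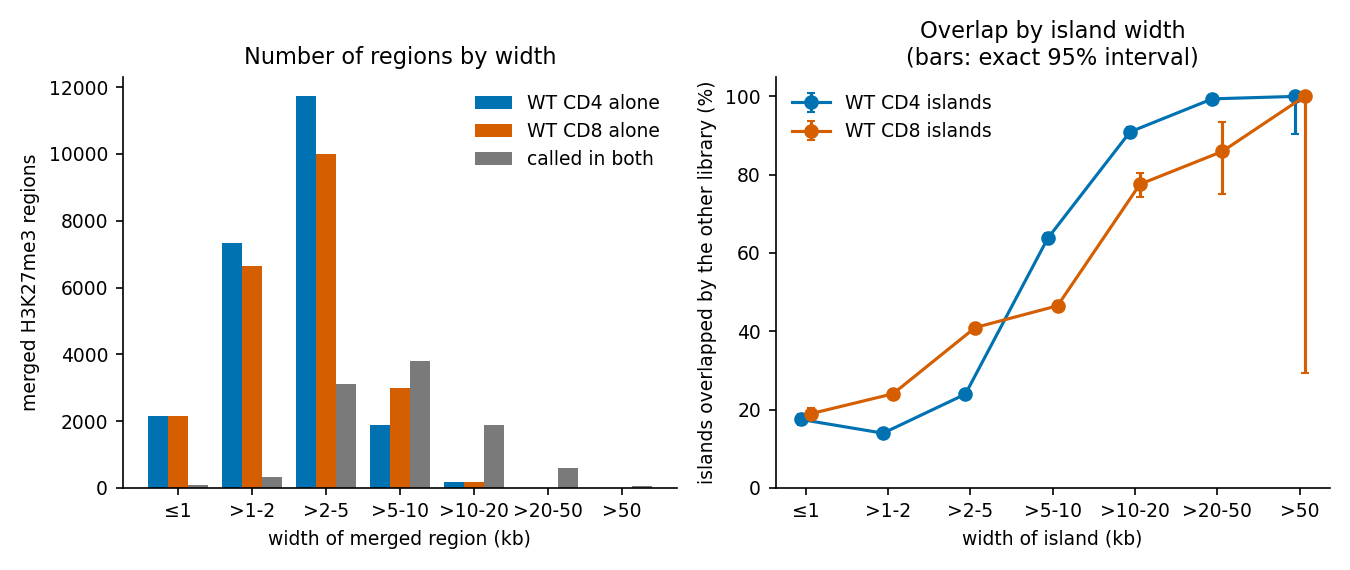
Left, number of merged H3K27me3 regions (vertical axis) by width in kb, for regions of WT CD4 alone (blue), of WT CD8 alone (orange) and called in both (grey). Right, percent of islands overlapped by an island of the other library, by island width in kb, with exact 95% intervals for counting error; overlap reaches 99.4% of WT CD4 islands and 85.9% of WT CD8 islands over 20 to 50 kb, from 14.0% and 24.0% over 1 to 2 kb.

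Very few broad domains were called in 1 lineage alone. Of the 679 regions of at least 20 kb, 3 belonged to WT CD4 alone and 9 to WT CD8 alone, and 667 were called in both. The widest of all, chromosome 11, 95979201 to 96187800 (208.6 kb), held 10489 H3K27me3 reads in WT CD4 and 3081 in WT CD8. In WT CD4 it was 2 islands, of 188.6 kb and 18.8 kb, that covered 99.4% of it, whereas in WT CD8 it was 21 islands that covered 78.5%. The DKO CD8 library had 4 islands there with 9800 reads, counted over whole islands, which may reach past the region. A domain on chromosome 15, 102789801 to 102883000, had the same form, with 4926 reads in WT CD4 and 1470 in WT CD8, and 2 DKO CD8 islands with 8405 reads. Further such domains lay on chromosome 7, 86617401 to 86718400 (4476 and 1369 reads in WT CD4 and WT CD8), and on chromosome 4, 115559601 to 115660200 (4467 and 1350 reads). Chromosome 8, 126058201 to 126188400, wider than these at 130.2 kb, had read numbers nearer to each other, 22505 in WT CD4 and 14290 in WT CD8. Each of the 10 widest shared regions also had a DKO CD8 H3K27me3 island, as did all 55 shared regions over 50 kb.

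Among shared regions, finer division of the WT CD8 signal was more frequent than the reverse, though 7604 (77.0%) had 1 island of each library. In 1438 of 9869 (14.6%), 1 WT CD4 island spanned several WT CD8 islands, and the reverse was seen in 451 (4.57%). The WT CD4 islands were the longer in 7205 shared regions (73.0%) and the WT CD8 islands in 2331 (23.6%). Within islands of regions of at least 20 kb, the median density was 37.9 reads per kb in WT CD4 (23.8 to 54.2 from the 5th to the 95th percentile) and 17.8 in WT CD8 (14.3 to 22.6). The WT CD8 densities lay in a narrower range, and their 95th percentile was below the 5th of WT CD4. More reads per kb and longer unbroken islands came together in the WT CD4 library, and depth and lineage cannot be told apart with 1 library a side.

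Across the 9869 shared regions, H3K27me3 island reads in WT CD4 and WT CD8 had a Spearman's rho of 0.68, and densities within each library's own islands 0.42. In regions of at least 20 kb the density rho was 0.62 (667 regions). These values are descriptions across regions of the same pair of libraries, and read numbers share the length of the region.

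The median ratio of WT CD4 over WT CD8 island reads at shared regions was 2.61, a log2 of 1.38, while all island reads stood at a ratio of 1.57. Ratios below are log2 values centred on that median. At least 2-fold from it, 650 regions (6.59%) were higher and 1826 (18.5%) lower in WT CD4. The split depended on the scale: with reads divided by total island reads it was 3390 higher and 732 lower, and with reads per kb of each library's own islands 84 higher and 440 lower. The order of higher and lower therefore turned with total island reads, and the lower set was larger on the other scales. Just past the thresholds, values ran between 1.001 and 1.004 on the higher side and between -1.003 and -1.0 on the lower side. Just short of them they ran between 0.998 and 0.999, and between -1.0 and -0.993.

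**Figure D2:**
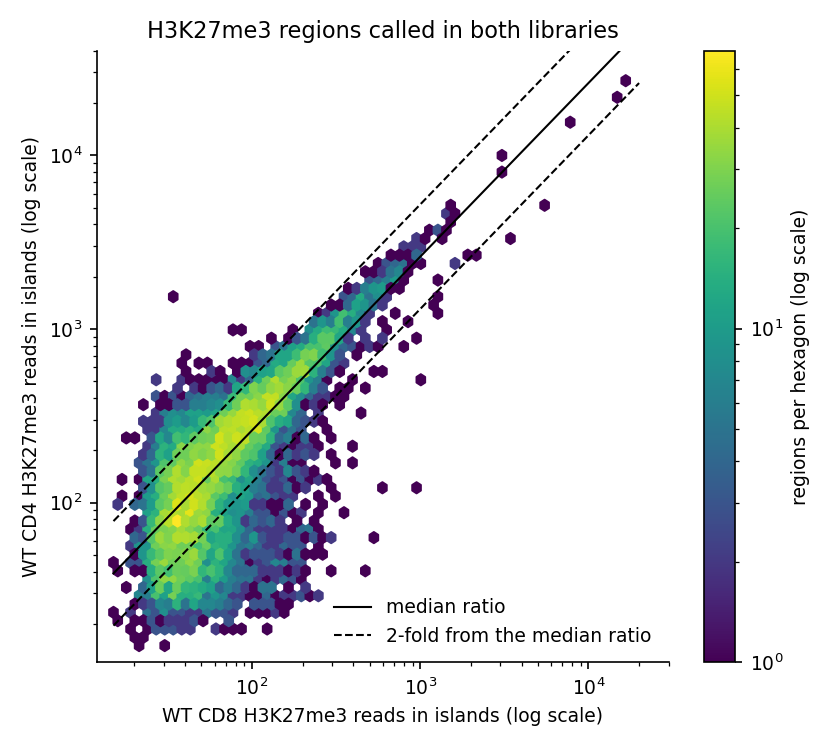
H3K27me3 reads in islands of WT CD4 (vertical, log scale) against WT CD8 (horizontal, log scale) at the 9869 regions called in both libraries. Hexagons are coloured by the number of regions in each (log scale). The 650 regions at least 2-fold higher in WT CD4 and the 1826 at least 2-fold lower lie to either side of the median ratio of 2.61.

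The lower regions were mostly short and weak and the higher ones long. The calls and the centring shape this in part. Islands held at least 15 reads in each list, so a short region with few reads can hardly reach the higher side. Of 99 shared regions up to 1 kb, 0 were higher and 67 lower. Of 334 over 1 to 2 kb, 0 were higher and 194 lower. The median width was 9400 bp for regions 2-fold higher in WT CD4 and 4000 bp for those 2-fold lower. Median reads in the higher set were 272 in WT CD4 and 38 in WT CD8, and in the lower set 44 in WT CD4 and 56 in WT CD8. Among the 667 regions of at least 20 kb, 41 (6.15%) were higher and 12 (1.80%) lower. Among the 6782 with at least 100 reads in the library with more, 648 (9.55%) were higher and 406 (5.99%) lower. This minimum keeps higher regions more readily, since the WT CD4 reads are mostly the larger number.

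A further library that had no part in defining these regions, H3K27me3 of DKO CD8, was set beside them. Shared regions with a DKO CD8 island had a median log2 ratio of 0.16 (7667 regions, 8.18% higher and 8.69% lower). Those without one had a median of -1.06 (2202 regions, 1.04% higher and 52.7% lower). DKO CD8 islands thus lay at 96.5% of the regions higher in WT CD4 and at 36.5% of the regions lower in WT CD4, against 77.7% of shared regions. Shared regions with a DKO CD8 island were also longer, with a median of 7400 bp against 4200 bp. Their median reads were 215 in WT CD4 and 70 in WT CD8, against 55 and 42. The median ratio itself was -1.30 up to 1 kb and 0.33 over 10 to 20 kb, where 50.5% and 96.3% had a DKO CD8 island. Width and reads were not held equal in this split.

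The ratio differed less by active marks, and was lower where WT CD8 alone carried H3K27ac or H3K4me3. For H3K9ac the order was reversed. Its median was 0.05 with an island in WT CD4 alone (2275 regions, 19.5% lower). With one in WT CD8 alone it was 0.13 (456 regions, 16.0% lower). Regions with an H3K27ac island in WT CD4 but not WT CD8 had a median log2 H3K27me3 ratio of 0.19 (1000 regions, 8.30% lower). Those with one in WT CD8 but not WT CD4 had a median of -0.18 (2202 regions, 33.1% lower). Those with neither stood at -0.03 (5707 regions). For H3K4me3, the medians were 0.17 with an island in WT CD4 alone (1683 regions, 10.6% lower) and -0.05 with one in WT CD8 alone (1551 regions, 28.1% lower). With all 3 active marks in WT CD4 and none in WT CD8 the median was 0.20 (122 regions, 9.84% lower), and with all 3 in WT CD8 and none in WT CD4 it was -0.61 (61 regions, 41.0% lower). Among shared regions with a DKO CD8 H3K27me3 island, the medians of the H3K27ac and H3K4me3 classes lay between 0.10 and 0.24. Their lower shares still differed: 5.93% with H3K27ac of WT CD4 alone and 13.6% with that of WT CD8 alone, and 5.76% and 9.83% for H3K4me3. Regions with a splenic Tcf1 peak stood at 0.21 (297 regions) and those without at -0.01 (9572 regions).

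Where the library with more had at least 100 reads, the shared regions with the highest ratio were mostly long WT CD4 islands over a small WT CD8 island. Chromosome 3, 89283401 to 89302000, held 509 reads in WT CD4 and 27 in WT CD8 (log2 ratio 2.85, 2.30 to 3.47), and the WT CD8 island covered 6.45% of it. Chromosome 15, 100826401 to 100841600, held 485 reads in WT CD4 and 26 in WT CD8 (2.84, 2.27 to 3.47), and chromosome 9, 122532801 to 122561000, held 683 in WT CD4 and 39 in WT CD8 (2.75, 2.28 to 3.25). In WT CD4 the mark ran unbroken across each, and DKO CD8 islands there held 456, 366 and 218 reads. All 10 of the highest regions had a DKO CD8 H3K27me3 island, as did 96.5% of all regions higher in WT CD4. The log2 ratios of the 10 lay between 2.45 and 4.17. The one at 4.17, chromosome 4, 118214401 to 118223000, held 1592 reads in WT CD4 and 34 in WT CD8, and was strong in other marks too. It had 1395 H3K4me3 and 1534 H3K9ac reads in WT CD4, and 980 H3K27ac and 1043 H3K9ac reads in WT CD8. Chromosome 11, 94678001 to 94708000, also had a splenic Tcf1 peak, with 628 reads in WT CD4, 288 in DKO CD8 and 37 in WT CD8. Reads outside islands are not known, so such ratios can be overstated and their intervals do not cover this.

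The regions with the lowest ratio were of the opposite form and carried active marks in WT CD8. Chromosome 7, 20889801 to 20916400, held 60 reads in WT CD4 and 519 in WT CD8 (log2 ratio -4.49, -4.91 to -4.11), with 268 WT CD8 H3K27ac reads. Chromosome 7, 15398601 to 15411000, held 30 reads in WT CD4 and 248 in WT CD8 (-4.43, -5.03 to -3.88), with 175 WT CD8 H3K27ac reads. Of the 10 lowest, 0 had a DKO CD8 H3K27me3 island, 9 had a WT CD8 H3K27ac island and 10 a WT CD8 H3K4me3 island. Among all regions at least 2-fold lower in WT CD4 the shares were 36.5%, 47.4% and 31.6%. The 10 were 7.2 to 26.6 kb long, against a median of 4000 bp in that set, and longer regions meet an island more readily. In these 10 the WT CD4 islands covered 7.52% to 19.4% of the region.

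Regions of 1 lineage alone differed in whether the DKO CD8 library had them too. A DKO CD8 H3K27me3 island lay at 6551 of the 23240 regions of WT CD4 alone (28.2%, 27.6 to 28.8) and at 1465 of the 21984 of WT CD8 alone (6.66%, 6.34 to 7.0). All 55093 regions together had one at 28.5%. By island, 28.7% of the 23933 DKO CD8 islands overlapped WT CD4 alone, 6.08% WT CD8 alone, 34.8% both and 30.4% neither. The H3K27me3 of DKO CD8 overlapped that of WT CD4 at a Jaccard index of 39.7% and that of WT CD8 at 22.9%.

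The gap widened with the strength of the region. Among regions of WT CD4 alone, the share with a DKO CD8 island was 12.8% of those with under 30 reads (2797 regions) and 90.0% of those with at least 200 (311 regions, 86.2 to 93.1). Among regions of WT CD8 alone it was 6.73% of those with under 30 reads (3448 regions) and 9.49% of those with at least 200 (569 regions, 7.21 to 12.2). The difference stood also at matched width: of regions over 5 to 10 kb, 60.1% of 1883 of WT CD4 alone and 7.08% of 2994 of WT CD8 alone had a DKO CD8 island. Read number in WT CD8 went with acetylation. An H3K27ac island of the same cells lay at 3.83% of the weakest and 21.2% of the strongest regions of WT CD4 alone, and at 34.7% and 97.0% of those of WT CD8 alone.

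**Figure D3:**
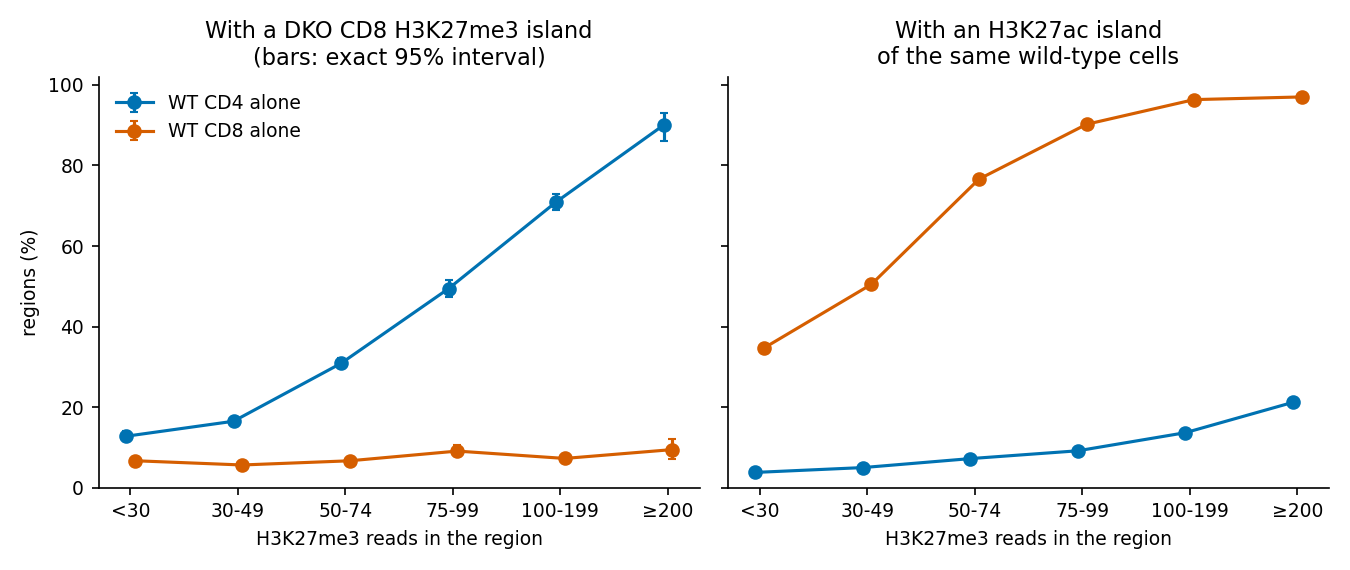
Percent of H3K27me3 regions of WT CD4 alone (blue) and WT CD8 alone (orange) with a DKO CD8 H3K27me3 island (left, exact 95% intervals) and with an H3K27ac island of the same wild-type cells (right), by H3K27me3 reads in the region. On the left WT CD4 climbs to 90.0% while WT CD8 stays at 9.49% or less; on the right WT CD4 climbs to 21.2% and WT CD8 to 97.0%.

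The WT CD8 regions outside WT CD4 islands thus divided into a larger acetylated class and a smaller class without acetylation, a division made after these values were seen. With H3K27ac of their own cells there were 1569 regions of WT CD4 alone (6.75%) and 14141 of WT CD8 alone (64.3%), while of all merged regions 7.41% had a WT CD4 H3K27ac island and 34.7% a WT CD8 one. The acetylated regions of WT CD8 alone had a median of 58 H3K27me3 reads and 3405 of them had at least 100. The 7843 without acetylation had a median of 35, and 125 of them had at least 100. DKO CD8 islands lay at 51.4% with and 26.5% without acetylation in WT CD4 alone, and at 6.39% with and 7.15% without in WT CD8 alone. The low share in WT CD8 alone was thus found in both classes.

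In the acetylated regions of WT CD8 alone, the numbers of reads of the opposed marks went together. Spearman's rho between H3K27me3 and H3K27ac island reads was 0.05 in regions of WT CD4 alone (1569 regions) and 0.80 in regions of WT CD8 alone (14141 regions). Within regions of 2 to 5 kb, where length varies less, it was 0.03 in WT CD4 (802 regions) and 0.73 in WT CD8 (6222 regions). Per kb it was 0.22 in WT CD4 and 0.40 in WT CD8. H3K27ac islands covered a median of 44.4% of such regions of WT CD4 and 67.4% of those of WT CD8. In shared regions with own acetylation, rho was 0.03 in WT CD4 (1960 regions) and 0.20 in WT CD8 (3162 regions). Within shared regions of 2 to 5 kb it was 0.10 in WT CD4 (407 regions) and 0.58 in WT CD8 (719 regions), and per kb -0.07 in WT CD4 and 0.29 in WT CD8. The WT CD8 values thus lay nearer to those of WT CD8 alone once length varied less. These are descriptions across regions of the same pair of libraries, and what part the immunoprecipitations have in the overlap was not tested. With regions holding H3K27ac of either wild type left out, an alternative chosen after these values were seen, WT CD4 alone had 20291 regions and WT CD8 alone 7669.

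Of all merged regions, 10.4% had an H3K4me3 island of WT CD4 and 20.3% one of WT CD8. Regions of WT CD4 alone had an H3K4me3 island of WT CD4 at 9.81% and of WT CD8 at 7.99%. Regions of WT CD8 alone had one of WT CD4 at 3.33% and of WT CD8 at 30.5%, and H3K4me3 lay at 41.6% of those with own acetylation and at 10.5% of those without. Shared regions had similar shares, 27.5% in WT CD4 and 26.2% in WT CD8, which says that the marks met in a region, not on a nucleosome. Splenic Tcf1 peaks were rare at H3K27me3 regions, at 0.671% of WT CD4 alone, 0.237% of WT CD8 alone and 3.01% of shared regions. They lay at 0.917% of all merged regions, and the shared regions, being longer, meet a peak more readily. No active mark of either lineage lay at 15973 regions of WT CD4 alone (68.7%), 6239 of WT CD8 alone (28.4%) and 3248 shared regions (32.9%). Of all merged regions this was 46.2%.

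H3K27me3 of one lineage alone also lay at chromatin with an active mark in the other lineage and none in its own. This was found at 2289 regions of WT CD4 alone (9.85%) and 650 of WT CD8 alone (2.96%). Both were below the shares over all merged regions, 31.8% with an active mark in WT CD8 only and 11.1% in WT CD4 only. Active marks of each lineage lay at a further 1436 (6.18%) of WT CD4 alone and 1729 (7.86%) of WT CD8 alone, against 10.9% of all merged regions. With all 3 active marks required, such regions were few, a count that the 9860 H3K9ac islands of WT CD8 also limit. Of the regions of WT CD4 alone, 2 had islands of all 3 active marks in WT CD8 and none in WT CD4. They were chromosome 15, 101242401 to 101247400 (90 WT CD4 H3K27me3 reads), and chromosome 5, 52970001 to 52975000 (89 reads), and neither had a DKO CD8 island. Of the regions of WT CD8 alone, 12 had all 3 active marks in WT CD4 and none in WT CD8 (0.055%), against 440 (2.0%) with all 3 in WT CD8 itself and none in WT CD4. This listing was also added after values had been seen. Over all merged regions, 219 had the active marks of WT CD4 alone in this way, of which 85 were of WT CD4 alone and 122 shared, and 503 had those of WT CD8 alone, of which 61 were shared. In 11 of the 12 the WT CD8 H3K27me3 reads numbered 48 or fewer.

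The exception was chromosome 3, 89195201 to 89208800 (13.6 kb). WT CD4 had no H3K27me3 island in it, DKO CD8 had 1 island of 59.4 kb that spans it with 2594 reads, and WT CD8 had 224 reads. WT CD4 carried there an H3K27ac island of 17.8 kb with 389 reads, 2 H3K4me3 islands with 142 reads and an H3K9ac island with 39 reads. DKO CD8 had 2 small H3K27ac islands, of 25 and 32 reads, and WT CD8 had no island of an active mark within the region. In WT CD4 the last H3K27me3 island before the region ended at 89176800, and the long H3K27ac island began at 89182001. In WT CD8 H3K27me3 went on as 6 islands between 89150001 and 89208800, and in DKO CD8 as 1 island between 89150801 and 89210200 at 43.7 reads per kb, against 16.5 in the WT CD8 island. The WT CD8 islands left a gap from 89188600 to 89195201, just before the region. In it WT CD8 had islands of each active mark from 89192801, with 51 H3K4me3, 46 H3K27ac and 60 H3K9ac reads. DKO CD8 and WT CD4 had active-mark islands at that place too. Genes at this region were not analysed here.

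**Figure D4:**
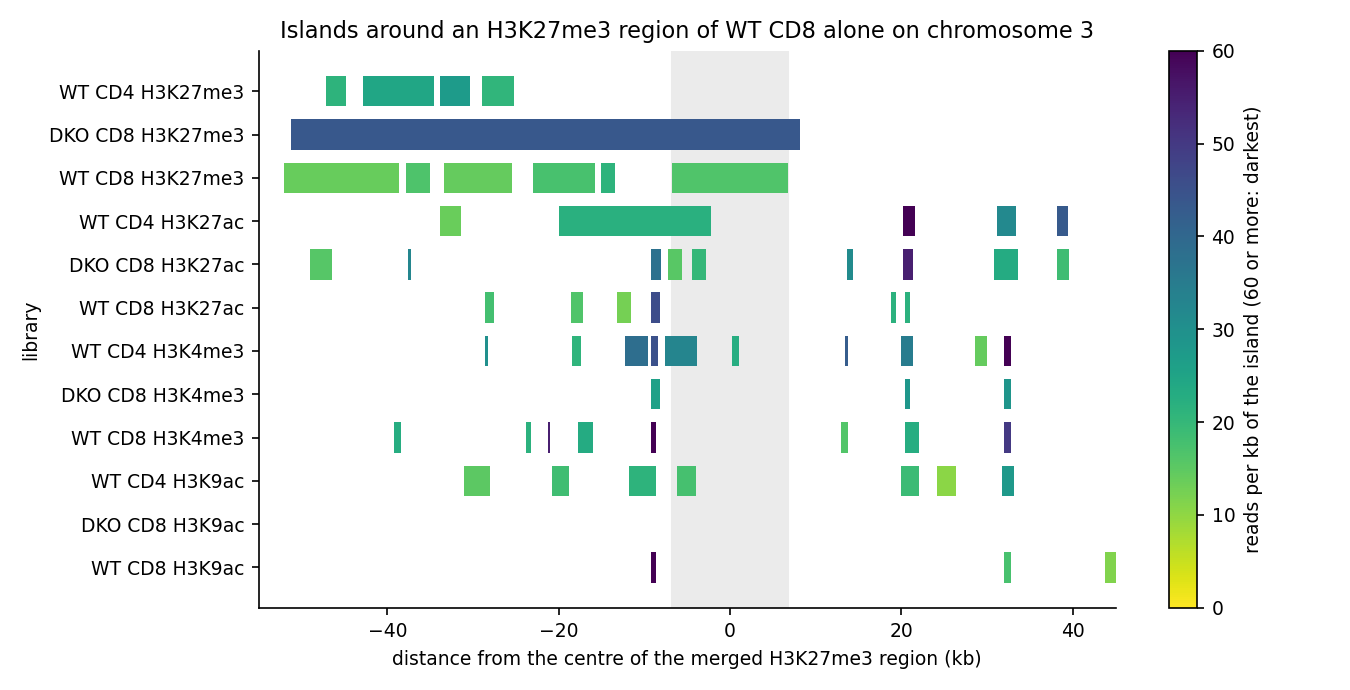
Islands of the 12 histone libraries (one line a library, grouped by mark) by distance in kb from the centre of the WT CD8 H3K27me3 region on chromosome 3, coloured by reads per kb of the island; the shaded span is the region of 13.6 kb. WT CD4 has H3K27ac, H3K4me3 and H3K9ac islands and no H3K27me3 island within the span, whereas DKO CD8 has an H3K27me3 island across it and WT CD8 one that fills it.

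Regions of 1 lineage with the most reads, leaving out those with islands in at least 10 of the 12 histone libraries, also differed. The 10 of WT CD4 alone held 459 to 944 reads. Of all regions of WT CD4 alone with at least 200 reads, 90.0% had a DKO CD8 island. Of the 10, 6 had one. Among these were chromosome 4, 3005601 to 3015000, with 944 reads in WT CD4 and 1608 in DKO CD8, chromosome 16, 3231401 to 3243000, with 727 in WT CD4 and 996 in DKO CD8, and chromosome 11, 78736801 to 78750800, with 479 in WT CD4 and 397 in DKO CD8. The last of these had no island in any of the other histone libraries. Of the 10, 7 had a WT CD4 H3K9ac island, 5 a WT CD4 H3K4me3 island and 0 a WT CD4 H3K27ac island. Over all regions of WT CD4 alone, mostly shorter, the shares were 11.6%, 9.81% and 6.75%. The regions on chromosomes 4 and 16 had WT CD4 H3K4me3 islands of 610 and 580 reads. Their WT CD4 H3K9ac islands held 665 and 545 reads. The 10 of WT CD8 alone held 1242 to 111889 reads, of which 1 had a DKO CD8 island and 9 a WT CD8 H3K27ac island. These counts were near the shares of all regions of WT CD8 alone with at least 200 reads, 9.49% and 97.0%. Chromosome 2, 98502201 to 98507600, held 15262 WT CD8 H3K27me3 reads and 7411 WT CD8 H3K27ac reads, and chromosome 7, 67002201 to 67050400, held 4348 and 3054. The region with the most reads, on chromosome 9, carried no other mark, while the other 9 overlapped WT CD8 H3K27ac. The chromosome 2 region held 2826 H3K27me3 reads per kb, against 21.2 over all WT CD8 islands.

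Regions without H3K27ac in either wild type, with a DKO CD8 island and with islands in few other libraries were listed as well, by a rule added after values were seen. In WT CD4 alone the first 5 held 379 to 479 reads, such as chromosome 5, 53599601 to 53610000 (395 reads in WT CD4 and 439 in DKO CD8), and chromosome 19, 44579001 to 44589200 (379 and 453). In WT CD8 alone the first 5 held 111 to 154 reads, such as chromosome 5, 94414001 to 94422800 (38 reads in DKO CD8 and 154 in WT CD8). Only chromosome 14, 63993001 to 64001000, had more in DKO CD8 (329 reads, over a whole island, and 111 in WT CD8). The others had 38 to 116 reads in DKO CD8, fewer than in WT CD8.

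The classes were spread differently over the genome. Regions of WT CD4 alone lay close to shared domains, at a median distance of 27.8 kb, with 10143 of them (43.6%) within 20 kb. Regions of WT CD8 alone lay at a median of 204.4 kb, with 2497 (11.4%) within 20 kb. Across the 19 autosomes, the coefficient of variation of regions per Mb was 22.5% for WT CD4 alone, 10.4% for WT CD8 alone and 27.3% for shared regions. Chromosome 11 had the most shared regions per Mb of any chromosome (6.77) and the fewest of WT CD8 alone (6.28), whereas chromosome 3, among the autosomes, had the fewest shared (2.41) and the fewest of WT CD4 alone (6.59).

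On chromosome X the lists parted widely. WT CD4 had 553 of its islands there (1.63%), DKO CD8 848 (3.54%) and WT CD8 2209 (6.36%). The chromosome makes up 6.34% of the genome span. Per Mb, regions of WT CD4 alone reached 2.38 on chromosome X and 9.52 on average over autosomes, while regions of WT CD8 alone reached 12.4 and 8.15. Shared regions reached 0.990 on chromosome X and 4.07 on autosomes, and their median log2 ratio was -0.78 on chromosome X (162 regions) and 0.01 on autosomes (9706 regions). Read density within islands was 25.9 per kb on chromosome X and 28.4 on autosomes in WT CD4, and 21.3 and 21.2 in WT CD8. Of H3K27ac islands, 1.89% in WT CD4 and 6.30% in WT CD8 lay on chromosome X, as did 1.84% and 4.44% of H3K4me3 islands and 1.96% and 1.30% of H3K9ac islands. What the difference in X islands rests on was not tested. With autosomes alone, regions called in both made up 18.5%, so the low overlap did not rest on chromosome X.

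**Figure D5:**
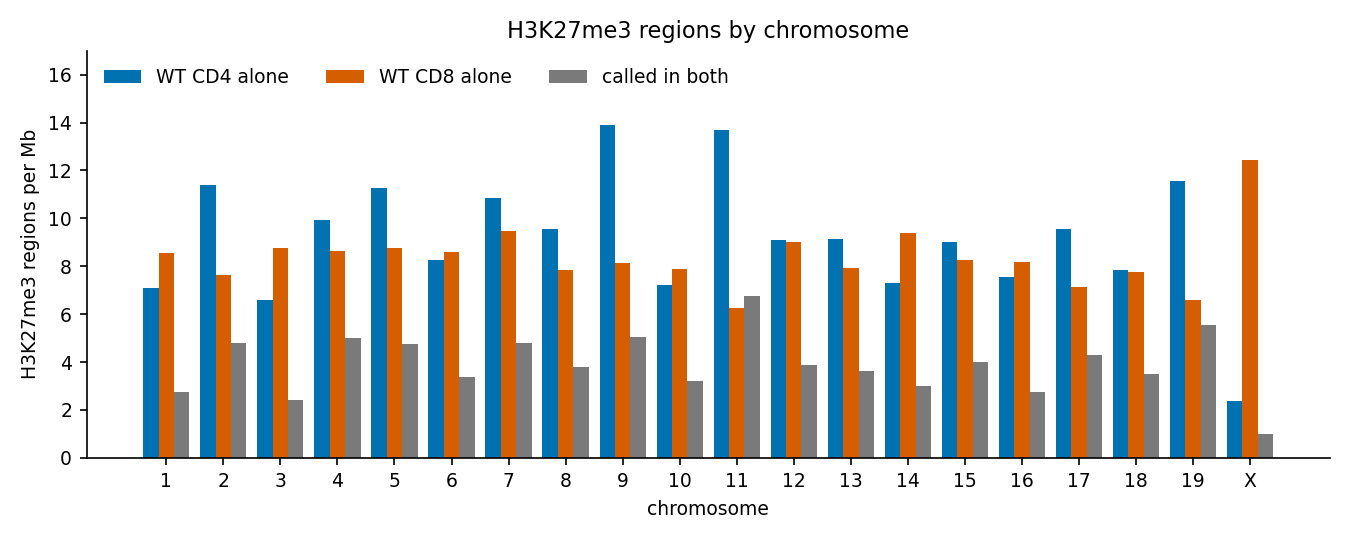
H3K27me3 regions per Mb (vertical axis) on each autosome and chromosome X, for regions of WT CD4 alone (blue), of WT CD8 alone (orange) and called in both (grey). On chromosome X regions of WT CD8 alone reach 12.4 per Mb, above their autosome mean of 8.15, while WT CD4 alone (2.38) and shared regions (0.990) lie below theirs of 9.52 and 4.07.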

How the data were processed

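Each island list gives a read count per island, as the authors deposited it, a whole number with no normalization. Of the deposited Tcf1 list, with a score for each peak, only the presence of a peak was used. Per the submitters' processing notes, the build was mm9 and the tools were SICER 1.1, MACS 1.4.2, Bowtie2 2.2.5 and FastQC, whose roles are not stated. H3K27me3 islands lay on a grid of 200 bp, with a smallest gap of 800 bp in each list. Per the labels, some samples were sequenced again for coverage, without saying which. The sources used here do not give library totals, so depth is read from island reads. Island reads are whole-island counts, also where an island of another mark reaches past a region.

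Islands were merged on a shared 1 bp. The log2 ratio of WT CD4 over WT CD8 island reads was centred on its median over shared regions, and at least 2-fold was counted. Intervals of ratios are conditional on the sum of both counts. The regions named were the 10 with the most reads of each lineage alone, with islands in fewer than 10 of the 12 histone libraries, the 10 highest and 10 lowest shared ratios among regions with at least 100 reads in the library with more, the 10 widest shared regions and the 5 with the most reads of all. Members, classes and rules were chosen with earlier results of these data known. The listings by opposed marks and by own acetylation were added after values were seen. Gene lists planned for an mm9 annotation were not run, because the gene table used names another build, and no sequence was printed for the same reason. The inputs were not analysed here.

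Scripts ran in Python 3.11.15 with SciPy 1.17.1, pandas 2.3.3, matplotlib 3.10.9 and numpy 2.4.6. Merging and overlap gave equal values in bedtools 2.31.1, and ratios were tested on simulated data. Alternatives covered the overlap rule, stronger islands, equal covered length, joined islands, other scales, regions in many libraries, autosomes and regions with H3K27ac.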

Additional observations from a re-analysis of the deposited data

How the results depend on the processing

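No paired analysis was possible because each group has 1 library and the titles carry no replicate numbers, and no library could be left out. The share of regions called in both (17.9%) became 16.7% with an overlap of at least 50%, 19.5% with islands above their list's median reads, 18.9% at equal covered length, 23.6% with islands within 5 kb joined, 18.5% on autosomes and 17% without regions holding H3K27ac of either wild type, which was chosen after seeing the data. The Jaccard index (21.1%) became 21.3% with islands above the median, 22.6% at equal length, 20.2% without regions in many libraries and 21.6% on autosomes. With islands above the median, WT CD4 alone had 11069 regions and WT CD8 alone 10642, with 229 shared regions higher and 672 lower in WT CD4. With islands joined, WT CD4 alone had 11960 regions and WT CD8 alone 16557, the opposite order to that reported, as at equal length (17726 and 22501). Without H3K27ac regions, WT CD8 alone had 7669, and 402 shared regions were higher and 842 lower. The counts by total island reads were 3390 higher and 732 lower, and per kb of own islands 84 and 440. The DKO CD8 share at WT CD4 alone (28.2%) became 56.9% with islands above the median, 32.7% at equal length, 24.5% with islands joined and 26.1% without H3K27ac. At WT CD8 alone (6.66%) it became 8.36%, 7.10% at equal length and 7.03% without H3K27ac. WT CD8 H3K4me3 at WT CD4 alone (7.99%) became 13.5% with islands above the median, 9.58% with islands joined and 6.39% without H3K27ac. WT CD4 H3K4me3 at WT CD8 alone (3.33%) became 4.70% with islands above the median. The remaining 34 values changed less than their interval or by less than 1.5 times. Fewer islands enter above the median and without H3K27ac, which lowers counts by construction; for other changes the cause was not tested. What depth limits could not be measured, since library totals and reads outside islands are unknown.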

Other observations

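Of the DKO CD8 H3K27me3 islands, 7282 (30.4%) met no H3K27me3 island of WT CD4 or WT CD8. These had a median width of 1800 bp and 35 reads, against 5200 bp and 159 reads for the 8327 that met both. Chromosome Y had 2 WT CD4 H3K27me3 islands with 85 reads and 30 WT CD8 islands with 2222 reads. Chromosome 11, 3016801 to 3100200, had islands in 11 of the 12 histone libraries, with 26890 H3K27me3 reads in WT CD4 and 16658 in WT CD8, and chromosome 17, 39979401 to 39986600, in 10, with 15799 in WT CD4 and 8246 in WT CD8.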
